A study of Mus musculus with 4 samples.

Results

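The cytosolic ribosomal protein genes encode the protein part of the cytoplasmic ribosome. They were taken from a table of messenger RNA counts in mouse embryonic stem cells by symbol: Rpl or Rps followed by a number, with an optional a, l, x or y and a further number, without the Rps6 kinase genes, together with Rplp0, Rplp1, Rplp2 and Rpsa. The rule found 84 of the 13815 rows: 43 genes of the large subunit, 31 of the small subunit, 3 of the P stalk and 7 paralogs of another ribosomal protein gene. All 84 matched a RefSeq entry by accession, 83 of them protein-coding, and 1, Rps4y2, noncoding under the present symbol Rps4l. Other genes that encode ribosomal proteins, such as Fau, Rpl36al and Gnb2l1 (Rack1), fall outside the rule and are described apart, as are 6 rows of ribosomal protein pseudogenes.

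The study sequenced polyadenylated RNA from wild-type (WT), Dgcr8-/- and Dicer-/- stem cells, all 3 labelled with the strain V6.5, and small RNA from WT cells, which is not used here. DGCR8 is the partner of Drosha that recognises primary microRNA transcripts in the nucleus, and Dicer cuts microRNA precursors in the cytoplasm. All cells were grown in serum with the leukaemia inhibitory factor product ESGRO, and messenger RNA libraries were made with a stranded kit. Each genotype has 1 library, and the labels describe neither the alleles nor whether a knockout line is 1 clone. Genotype, line, culture and library can therefore not be told apart, no test between genotypes was possible, and no p-value is given.

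The libraries hold 9931625 counts (WT), 11123498 (Dgcr8-/-) and 12309100 (Dicer-/-). Levels are given as CPM, counts scaled to a common total, and 1 CPM is 9.93 to 12.3 counts. Ratios of CPM carry exact 95% intervals that cover counting error only, not differences between cultures. The targeted genes stood lowest in their own knockout, Dgcr8 at 52.7 CPM in WT, 20.9 in Dgcr8-/- cells and 84.7 in Dicer-/- cells, and Dicer1 at 79.9, 128 and 20.1 CPM. Of the 10 stem cell markers listed, all 10 were detected in each library, with median log2 ratios to WT of 0.20 in Dgcr8-/- cells and -0.07 in Dicer-/- cells. Their summed level was 11630, 8107 and 8610 CPM, of which Dppa5a took 5564, 2715 and 4222 and Tdgf1 1486, 471 and 421.

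Ribosomal protein genes are transcribed at high rates in dividing cells, and their products are needed in matched amounts, because a ribosome holds nearly all of them in equal measure. Their messages usually begin with a C followed by a run of pyrimidines, the 5′ terminal oligopyrimidine (TOP) tract, through which mTOR signalling and the binding protein LARP1 set how strongly they are translated and how stable they are. Ribosomal proteins made in excess of the ribosomal RNA are degraded, and a particle of RPL5, RPL11 and 5S RNA that fails to join a ribosome can bind MDM2 and stabilise p53. A count of messenger RNA shows neither translation nor the amount of protein.

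The tract is the sequence feature for which this family is known, so the start regions of members from both ends and the middle of the range are shown. RefSeq promoter windows of the assembly GRCm38.p6 were given for 63 of the 84 members. Each line runs 5′ to 3′ on the transcript strand from 10 bases before the annotated start to 20 from the start on, and capitals mark the longest run of a C followed by C or T where it has 7 or more letters and lies in the line. The first 9 lines were picked from the members whose whole run lies in the line, 5 with low ratios, then Rplp2 from nearer the middle and 3 near or above WT in a knockout. Low members without a whole run in the line, such as Rplp0, Rpl39 and Rps28, are not printed. The last, the retrogene copy Rpl10l, has no such run in these letters.
Rps6: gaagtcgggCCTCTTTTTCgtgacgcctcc
Rpl22l1: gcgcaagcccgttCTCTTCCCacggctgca
Rpl38: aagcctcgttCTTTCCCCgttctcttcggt
Rps27: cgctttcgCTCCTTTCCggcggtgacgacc
Rps10: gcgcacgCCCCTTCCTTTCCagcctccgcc
Rplp2: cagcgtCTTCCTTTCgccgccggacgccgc
Rpl15: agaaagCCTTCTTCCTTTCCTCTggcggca
Rpl13a: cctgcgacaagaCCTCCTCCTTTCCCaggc
Rps26: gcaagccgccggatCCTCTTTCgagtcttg
Rpl10l: cctccattttgcggctggcggtgggcacgc

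In GRCm38.p6 these lie, in the same order, at chr4:86857348-86857377 (minus strand), chr3:28805498-28805527 (plus), chr11:114668570-114668599 (plus), chr3:90213629-90213658 (minus), chr17:27635225-27635254 (minus), chr7:141447641-141447670 (plus), chr14:18270967-18270996 (minus), chr7:45128726-45128755 (minus), chr10:128626487-128626516 (minus) and chr12:66284382-66284411 (minus). Each spans the annotated start of its gene, with the first bases of exon 1. A run of at least 7 within 50 bases of an annotated start, on the transcript strand, was found for 54 of the 63 members with a window (85.7%), against 44.5% of all 27025 genes with one. The ETS-type word CCGGAAG or its reverse complement CTTCCGG, searched over the whole window from 250 bases before to 50 after the start, was found for 26 members (41.3%) and for 9.93% of all genes, and the second word can overlap a tract. Members with and without a run of at least 7 had median log2 ratios of -0.51 and -0.56 in Dgcr8-/- cells. In Dicer-/- cells the medians were -0.32 and -0.38, with 54 and 9 genes. A run within 50 bases of an annotated start need not be the TOP tract, which opens the message itself. Members without such a run are thus not shown to lack a TOP tract. Members with and without the ETS-type word had -0.56 and -0.48, and -0.34 and -0.36, with 26 and 37 genes. In both knockouts the medians with and without each feature were close to each other.

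Ribosomal protein messages took a smaller part of both knockout libraries than of the WT library. The 84 genes held 13.735% of the counts in WT (exact Clopper-Pearson 95% interval 13.714 to 13.757), 9.0829% in Dgcr8-/- cells (9.0660 to 9.0998) and 10.232% in Dicer-/- cells (10.215 to 10.249). Their summed CPM was 1.51-fold lower in Dgcr8-/- cells than in WT (1.51 to 1.52) and 1.34-fold lower in Dicer-/- cells (1.34 to 1.35). Between the knockouts Dgcr8-/- cells were 1.13-fold lower (1.12 to 1.13). In such bulk samples less RNA per cell and fewer cells of a type that holds much of it cannot be told apart. The knockout comparisons share the WT library, so a high WT value lowers both ratios at once.

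Gene by gene, the shift was broad and moderate. On log2(CPM + 1) the median ratio of the members was -0.54 for Dgcr8-/- cells against WT, where all genes that reached 1 CPM in at least 1 of the libraries had 0.11, and the quartiles of the members were -0.74 and -0.28. For Dicer-/- cells against WT the members' median was -0.36 and that of all genes 0.10. Of the 84 members, 79 were below 0 in Dgcr8-/- cells and 73 in Dicer-/- cells, and the counting interval lay below 1 for 76 and 69. Of all genes, 5795 of 13223 and 6048 of 13403 were below 0, with the interval below 1 for 3909 and 4324. The other 196 genes with an average of 500 CPM or more had medians of -0.01 and -0.03, with 28 higher and 28 lower by 1.5-fold in Dgcr8-/- cells and 28 and 25 in Dicer-/- cells. In these abundant genes the interval lay below 1 for 90 and 95 and above 1 for 97 and 86.

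In Dgcr8-/- cells 36 members were at least 1.5-fold below WT and 1 was above it by that size, where 17.7% and 27.1% of all 13223 genes were. By 2-fold, 9 members were lower and 1, Rpl10l, higher, beside 8.02% and 14.3% of all genes. The 9 were Rps6, Rplp1, Rps20, Rpl22l1, Rps27l, Rplp0, Rpl39, Rpl7 and Rpl36a. In Dicer-/- cells 24 members were at least 1.5-fold lower and 3 higher, beside 19.7% and 28.0% of all 13403 genes. The 3 were Rpl13a, Rps4y2 and Rpl39l, of which 1, Rpl13a, reached 1.5-fold under TMM scaling. At 2-fold, 4 (Rps6, Rpl10l, Rps27l and Rplp1) were lower and 0 higher, beside 9.70% and 16.0%. The members lower by 1.5-fold were 42.9% of the family in the first comparison and 28.6% in the second, both above the share of all genes, and at 2-fold they were 10.7% and 4.76%, near or below it. The direction of single genes near 0 depends on the scaling: with TMM the median over all genes moved from 0.11 to 0.0044 in the first comparison and from 0.10 to -0.0002 in the second. The split of all 1.5-fold calls in the first then moved from 60.4% higher to 52.5% (50.8% with median-ratio scaling), and in the second from 58.7% to 51.9% (51.6%). The gap between members and all genes was -0.65 with total counts and -0.66 with TMM in the first, and -0.46 under both in the second. Scaling moves all log2 ratios of a pair by nearly the same amount, so this gap could hardly change and its constancy is no check.

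**Figure D1:**
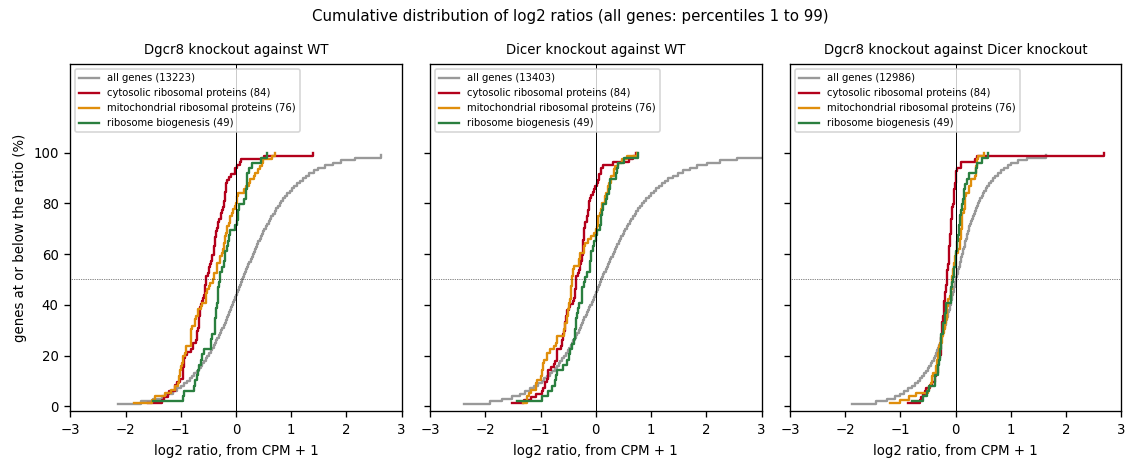
Cumulative share of genes (y axis, %) at or below each log2 ratio of CPM + 1 (x axis), in 3 panels for the 3 pairs of libraries, with the number of genes in each legend and all genes drawn at their percentiles. The line of the cytosolic ribosomal protein genes lies left of the line for all genes around the middle in both knockouts against WT, and is steeper than it.

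**Figure D2:**
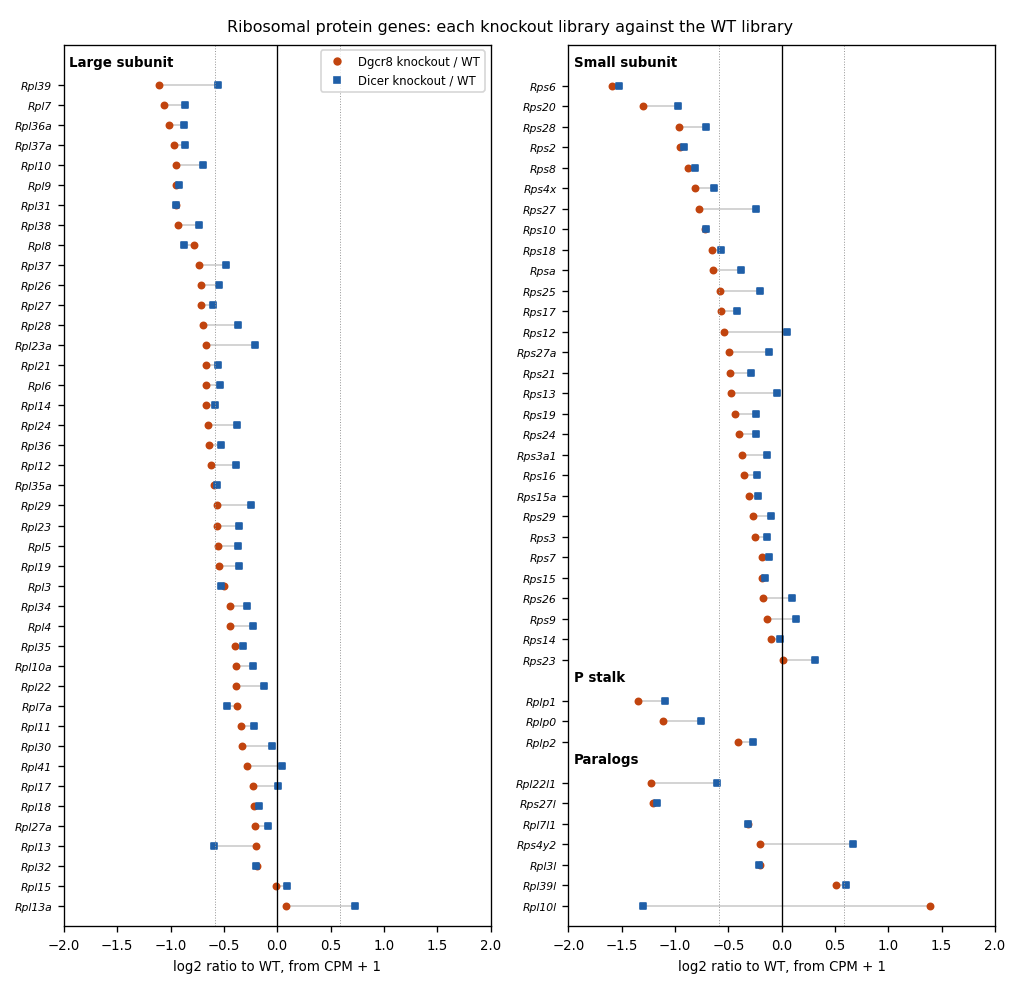
Log2 ratio of CPM + 1 of each knockout to WT (x axis) for 81 of the 84 genes, ordered within each class by the ratio of Dgcr8-/- cells; circles are Dgcr8-/- cells and squares Dicer-/- cells, each from 1 library, and dotted lines mark 1.5-fold. Most points lie left of 0, Rps6 is the lowest in both knockouts, and Rpl10l lies on opposite sides.

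Rps6 had the lowest ratio of the family in both knockouts. It encodes the small subunit protein that S6 kinase phosphorylates downstream of mTOR. Its level was 5830 CPM in WT, 1930 in Dgcr8-/- cells and 2028 in Dicer-/- cells, so both knockout libraries were low and near each other. Dgcr8-/- cells were 3.02-fold lower than WT (2.97 to 3.07) and Dicer-/- cells 2.87-fold lower (2.83 to 2.92). Its share of the counts on ribosomal protein genes was 4.24% in WT, 2.12% in Dgcr8-/- cells and 1.98% in Dicer-/- cells. Without it, the summed ratio of the remaining 83 genes to WT was 0.676 in Dgcr8-/- cells and 0.762 in Dicer-/- cells, beside 0.661 and 0.745 with it.

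Genes that neighbour Rps6 on chromosome 4 went in several directions, given here as log2 ratios to WT. Haus6, an augmin subunit, had -0.70 in Dgcr8-/- cells and -0.67 in Dicer-/- cells. Plin2, a lipid droplet protein, had 0.80 and 1.09, and Dennd4c had 0.02 and -0.22. On the other side Acer2 had -0.02 and -0.74, Mllt3 0.17 and 0.60, and Focad -1.35 and -1.22. The median over the genes of chromosome 4 outside the family was 0.03 in Dgcr8-/- cells and 0.04 in Dicer-/- cells, near the middle of all genes.

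The small subunit genes had a median log2 ratio of -0.49 in Dgcr8-/- cells and -0.23 in Dicer-/- cells, with 11 and 8 of 31 at least 1.5-fold lower and 0 higher. The lower genes were 35.5% and 25.8% of the class, beside 17.7% and 19.7% of all genes, and 27.1% and 28.0% of all genes were higher. Rps20, a protein of the head of the subunit, stood at 2036 CPM in WT, 828 in Dgcr8-/- cells and 1035 in Dicer-/- cells, 2.46-fold (2.40 to 2.52) and 1.97-fold (1.92 to 2.01) lower. At the mRNA exit side, Rpsa had 4548, 2910 and 3500 CPM and Rps28 had 900, 460 and 551 CPM, both lower in both knockouts. Rps14 and Rps26 of the same region were nearer to WT, with log2 ratios of -0.10 and -0.17 in Dgcr8-/- cells and -0.01 and 0.10 in Dicer-/- cells, where the last turns to -0.01 under TMM. The 5 exit side genes had medians of -0.64 and -0.38.

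The 4 genes of the mRNA entry and decoding side, Rps2, Rps3, Rps15 and Rps23, had medians of -0.22 in Dgcr8-/- cells and -0.14 in Dicer-/- cells. They spread widely. Rps2 lay among the low members, at 5992 CPM in WT, 3105 in Dgcr8-/- cells and 3173 in Dicer-/- cells. Rps23, whose product lies at the decoding centre, had 1415, 1427 and 1754 CPM. Its level in Dgcr8-/- cells was within counting error of WT (a log2 ratio of 0.01, or -0.10 under TMM), and that in Dicer-/- cells was 1.24-fold higher (1.21 to 1.27). Rps3 and Rps15 lay between, at log2 ratios of -0.25 and -0.18 in Dgcr8-/- cells and -0.13 and -0.15 in Dicer-/- cells.

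Other small subunit genes showed a gap between the knockouts. Rps12 had 2080 CPM in WT, 1434 in Dgcr8-/- cells and 2154 in Dicer-/- cells, low in Dgcr8-/- cells and near WT in Dicer-/- cells. Rps27, a zinc finger protein, had 677, 395 and 571 CPM and was 1.72-fold lower in Dgcr8-/- cells (1.65 to 1.78) and 1.19-fold lower in Dicer-/- cells (1.15 to 1.23). Rps25, needed for translation from some viral internal entry sites, had 1300, 868 and 1130 CPM. In these 3 genes the Dgcr8-/- library was the lowest. Rps9 had 1000 CPM in WT, 911 in Dgcr8-/- cells and 1097 in Dicer-/- cells. Rps26, which helps recognise the sequence before the start codon, had 1083, 961 and 1159 CPM, again lowest in Dgcr8-/- and highest in Dicer-/- cells.

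The large subunit genes had a median log2 ratio of -0.56 in Dgcr8-/- cells and -0.38 in Dicer-/- cells, and 21 and 11 of 43 were at least 1.5-fold lower. The lower genes were 48.8% and 25.6% of the class, beside 17.7% and 19.7% of all genes. The count of genes higher by that size was 0 and 1, the 1 being Rpl13a, beside 27.1% and 28.0% of all genes. Rpl7 stood at 2990 CPM in WT, 1430 in Dgcr8-/- cells and 1646 in Dicer-/- cells, 2.09-fold (2.05 to 2.13) and 1.82-fold (1.78 to 1.85) lower. Rpl38, which is required for the translation of a subset of Hox messages in the mouse embryo, had 655, 344 and 394 CPM, 1.90-fold (1.83 to 1.98) and 1.66-fold (1.60 to 1.73) lower. Both genes were lower in the knockouts than the middle of their class.

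The 5S particle genes Rpl5 and Rpl11 were moderately lower. Rpl5 had 2634 CPM in WT, 1795 in Dgcr8-/- cells and 2045 in Dicer-/- cells, and Rpl11 had 1147, 905 and 987 CPM. Their log2 ratios were -0.55 and -0.34 in Dgcr8-/- cells and -0.36 and -0.22 in Dicer-/- cells, and neither gene reached 1.5-fold by total counts. With TMM the log2 ratio of Rpl5 in Dgcr8-/- cells was -0.67, which is past 1.5-fold. Around the exit of the peptide tunnel, where signal recognition particle and nascent chain factors bind, the 8 listed genes had medians of -0.61 and -0.34. Of these 8, 4 in Dgcr8-/- cells and 1 in Dicer-/- cells were at least 1.5-fold lower, beside 17.7% and 19.7% of all genes. The share of lower genes in this ring was above that of all genes in Dgcr8-/- cells and below it in Dicer-/- cells. Rpl31 of this ring had 1368, 711 and 707 CPM, 1.93-fold (1.87 to 1.98) and 1.94-fold (1.88 to 1.99) lower. Rpl17 lay at the other end of the ring, with 1196, 1020 and 1206 CPM.

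Rpl39, a small protein in the wall of the tunnel, differed between the knockouts. It had 1207 CPM in WT, 558 in Dgcr8-/- cells and 821 in Dicer-/- cells, 2.16-fold (2.10 to 2.23) and 1.47-fold (1.43 to 1.51) lower. It is 1 of the 4 members on the X chromosome, beside Rpl10 (2291, 1184 and 1411 CPM), Rpl36a (974, 482 and 530 CPM) and Rps4x (2970, 1694 and 1909 CPM). All 4 were at least 1.5-fold lower in Dgcr8-/- cells and 3 of 4 in Dicer-/- cells, with medians of -0.98 and -0.67 on the log2 scale. By that size, 34.5% and 26.1% of the X-linked genes outside the family were lower, and 17.7% and 19.7% of all genes. The 461 and 475 X-linked genes outside the family had medians of -0.30 and -0.12, lower than the 0.11 and 0.10 of all genes, and the part of the chromosome in the members' values was not tested.

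Rpl13a was the exception among the large subunit genes. Its product is shed from the ribosome in interferon-treated myeloid cells, and the gene hosts several small nucleolar RNAs in its introns. It had 1917 CPM in WT, 2029 in Dgcr8-/- cells and 3169 in Dicer-/- cells. The level in Dicer-/- cells was 1.65-fold above WT (1.62 to 1.68). That in Dgcr8-/- cells was near WT, at a log2 ratio of 0.08 that turns to -0.03 under TMM. Neighbours of the gene on chromosome 7 had log2 ratios in Dicer-/- cells of -0.40 for Rcn3, 1.56 for Fcgrt, 0.70 for Aldh16a1, 0.33 for Pih1d1 and -1.32 for Slc17a7.

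Rpl15 was also near WT in Dgcr8-/- cells. It had 1289 CPM in WT, 1280 in Dgcr8-/- cells and 1371 in Dicer-/- cells, and its log2 ratio of 0.09 in Dicer-/- cells turns to -0.02 under TMM. Rpl13 had 2466, 2142 and 1635 CPM. The Dicer-/- library was the lowest, 1.51-fold (1.48 to 1.54) below WT. The gene lies on chromosome 8, whose other genes had a median log2 ratio of -0.32 in Dicer-/- cells and 0.16 in Dgcr8-/- cells. The part of the chromosome in the value of Rpl13 was not tested. Rpl41, the shortest ribosomal protein, had 1898 CPM in WT, 1565 in Dgcr8-/- cells and 1957 in Dicer-/- cells. Outside chromosomes 1, 8 and X, 75 members had medians of -0.50 in Dgcr8-/- cells and -0.28 in Dicer-/- cells.

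The P stalk, made of RPLP0 with dimers of RPLP1 and RPLP2, recruits and activates the elongation factors. Its 3 genes held the lowest class median, a log2 ratio of -1.11 in Dgcr8-/- cells and -0.75 in Dicer-/- cells, and their summed CPM was 2.06-fold (2.04 to 2.09) and 1.69-fold (1.67 to 1.71) lower. Rplp1 had 2406 CPM in WT, 948 in Dgcr8-/- cells and 1131 in Dicer-/- cells, 2.54-fold (2.48 to 2.60) and 2.13-fold (2.08 to 2.17) lower. Rplp0, often used as a reference gene for RNA measurements, had 4523, 2089 and 2686 CPM, 2.17-fold (2.13 to 2.20) and 1.68-fold (1.66 to 1.71) lower. Rplp2 was nearer to WT, with 1179, 891 and 980 CPM. The class is small, and its median is the value of a single gene, Rplp0.

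**Figure D3:**
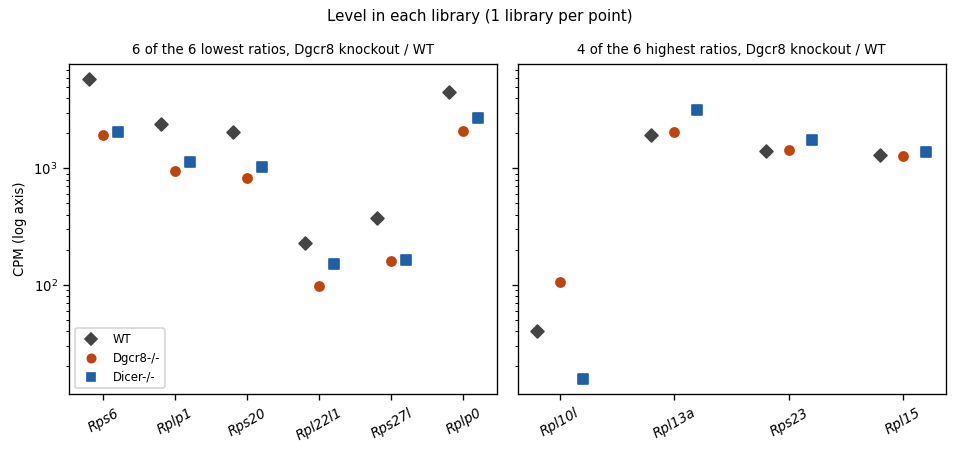
CPM (y axis, log scale) in the WT (diamond), Dgcr8-/- (circle) and Dicer-/- (square) libraries, 1 library per point, for the 6 genes with the lowest ratio of Dgcr8-/- cells to WT and 4 of the 6 with the highest. Points should be compared within a gene, since CPM is not corrected for length. The WT library is the highest in all 6 genes on the left, and on the right Rpl10l and Rpl13a have knockout values far apart.

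Some paralogs encode variant ribosomal proteins that can replace their parent in some tissues. The 7 paralog members, of which Rps4y2 is noncoding, had medians of -0.20 in Dgcr8-/- cells and -0.31 in Dicer-/- cells. Their log2 ratios ranged from -1.23 to 1.39 in Dgcr8-/- cells, where the other 77 members ranged from -1.60 to 0.08. Rpl22l1, whose message is repressed by its parent RPL22 in mouse cells, had 229 CPM in WT, 97.3 in Dgcr8-/- cells and 150 in Dicer-/- cells, 2.35-fold (2.19 to 2.53) and 1.52-fold (1.43 to 1.62) lower. Its parent Rpl22 had 625, 480 and 574 CPM. Rps27l, a p53 target in human cells, had 371, 160 and 165 CPM, 2.31-fold (2.19 to 2.45) and 2.25-fold (2.13 to 2.38) lower. Both paralogs were thus lower relative to their parents too: there were 36.6 counts of Rpl22l1 per 100 of Rpl22 in WT, 20.3 in Dgcr8-/- cells and 26.2 in Dicer-/- cells. For Rps27l per 100 counts of Rps27 the values were 54.8, 40.6 and 28.8.

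Rpl10l, a retrogene that stands in for the X-linked Rpl10 in male germ cells, had the widest gap between the knockouts of all members. It had 39.8 CPM in WT, 106 in Dgcr8-/- cells and 15.5 in Dicer-/- cells, from 395, 1176 and 191 counts. The level in Dgcr8-/- cells was 2.66-fold above WT (2.37 to 2.99), and that in Dicer-/- cells was 2.56-fold lower (2.15 to 3.06). Per 100 counts of Rpl10 there were 1.74 in WT (1.57 to 1.92), 8.93 in Dgcr8-/- cells (8.40 to 9.48) and 1.10 in Dicer-/- cells (0.949 to 1.27). How reads of close copies were divided between the rows remains not given in the sources used here, so this level is uncertain. The parent row was lower in both knockouts.

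Rps4y2, a transcribed pseudogene of the Rps4 family in the annotation used for names, had 326 CPM in WT, 283 in Dgcr8-/- cells and 518 in Dicer-/- cells. Per 100 counts of Rps4x there were 11.0, 16.7 and 27.1, so the row was higher relative to Rps4x in both knockouts. How reads of close copies were divided is not given, so the level of Rps4y2 is uncertain too. Rpl7l1 had 240, 192 and 193 CPM, and per 100 counts of Rpl7 8.04, 13.4 and 11.7, since Rpl7 was the lower of the pair. The muscle paralog Rpl3l, at 2.42, 1.98 and 1.95 CPM, and Rpl39l, at 2.92, 4.58 and 4.96 CPM, were near the floor. Their intervals in Dgcr8-/- cells against WT include 1, and that of Rpl39l in Dicer-/- cells lies above 1 (1.07 to 2.74). Per 100 counts of Rpl39, which was lower in both knockouts, Rpl39l had 0.24 in WT (0.16 to 0.35). The values were 0.82 in Dgcr8-/- cells (0.61 to 1.08) and 0.60 in Dicer-/- cells (0.46 to 0.78).

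**Figure D4:**
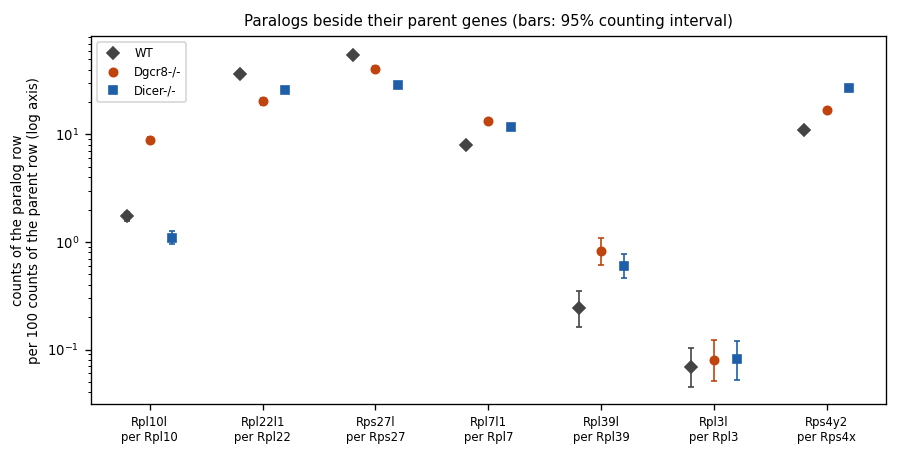
Counts of each paralog row per 100 counts of its parent row (y axis, log scale) in WT (diamond), Dgcr8-/- cells (circle) and Dicer-/- cells (square), with bars for the 95% counting interval. The values are ratios of counts, not of molecules, because lengths differ. Rpl22l1 and Rps27l lie below their WT value in both knockouts, and Rpl7l1, Rps4y2 and Rpl39l lie above it, the last from few counts. Rpl10l lies above its WT value in Dgcr8-/- and below it in Dicer-/- cells.

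The ribosomal proteins outside the name rule were lower too, with medians of -0.32 in Dgcr8-/- cells and -0.30 in Dicer-/- cells and 0 of 4 at 1.5-fold. By that size 17.7% and 19.7% of all genes were lower. Fau, the ubiquitin-like fusion that carries RPS30, had 768 CPM in WT, 525 in Dgcr8-/- cells and 618 in Dicer-/- cells. Gnb2l1, the scaffold protein RACK1 of the small subunit head, had 2880, 2223 and 2375 CPM. Rpl36al, a copy of Rpl36a, had 293, 245 and 273 CPM. The 6 pseudogene rows summed to 1.41-fold (1.39 to 1.43) and 1.31-fold (1.29 to 1.33) lower. Some lay at a near-constant proportion to their parent, such as Rplp2-ps1 with 88.9, 89.2 and 90.1 counts per 100 of Rplp2 and Rpl31-ps12 with 63.4, 65.2 and 64.8 per 100 of Rpl31. Others did not, such as Rps15a-ps4 with 14.5, 17.4 and 21.0 per 100 of Rps15a and Rps19-ps3 with 4.75, 6.32 and 5.30 per 100 of Rps19. Reads of such near-identical copies cannot be told apart from those of the parent, and part of the parents' counts may stand in these rows.

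Of the 18 listed members that are mutated in Diamond-Blackfan anaemia, an inherited red cell failure, 7 (38.9%) were at least 1.5-fold lower in Dgcr8-/- cells and 4 (22.2%) in Dicer-/- cells, beside 17.7% and 19.7% of all genes, with medians of -0.50 and -0.28. Rps19, the gene most often mutated, had 861 CPM in WT, 634 in Dgcr8-/- cells and 730 in Dicer-/- cells. These medians were near those of the whole family.

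The knockouts differed less from each other than from WT. The median log2 ratio of Dgcr8-/- to Dicer-/- cells were -0.16 over the members and 0.00 over all genes. The Dgcr8-/- library was the lower for 74 of 84 members, and the counting interval lay below 1 for 67 and above 1 for 6. Of all 12986 genes, 6458 were lower, with the interval below 1 for 3784 and above 1 for 3968. Of the members, 4 (Rps4y2, Rpl13a, Rpl22l1 and Rps12) were at least 1.5-fold lower and 1, Rpl10l, was higher, beside 12.5% and 12.6% of all 12986 genes. At 2-fold, 0 members were lower and 1 higher, beside 5.05% and 4.15%. Rpl13 had the next highest ratio, at 0.39 on the log2 scale, where the other chromosome 8 genes had a median of 0.48.

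Other messages known to carry a TOP tract were in part lower. Of 19 such genes outside the family, 6 (31.6%) were at least 1.5-fold lower in each knockout and 0 higher, beside 17.7% and 19.7% of all genes lower, with median log2 ratios of -0.35 in Dgcr8-/- cells and -0.20 in Dicer-/- cells. Tpt1, the translationally controlled tumour protein, had 5391 CPM in WT, 2061 in Dgcr8-/- cells and 2702 in Dicer-/- cells. Eef1b2, an exchange factor of elongation, had 2367, 1223 and 1470 CPM, and Pabpc1, the poly(A)-binding protein, had 2274, 1231 and 1027 CPM. All of these lay in the range of the lower ribosomal protein genes. Eef2, the translocation factor, had 3072, 3557 and 3143 CPM and was not among the lower genes.

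The genes that assemble ribosomes had medians of -0.30 in Dgcr8-/- cells and -0.20 in Dicer-/- cells. Of these 49 ribosome biogenesis genes 11 (22.4%) were at least 1.5-fold lower and 0 higher in the first, and 8 (16.3%) lower and 1 higher in the second. The lower shares lie near the 17.7% and 19.7% of all genes. Nop10, of the pseudouridylating particles, had 149 CPM in WT, 52.2 in Dgcr8-/- cells and 91.1 in Dicer-/- cells, and Nip7 had 174, 90.3 and 64.3 CPM. Of 15 genes of RNA polymerase I and its factors, which make ribosomal RNA, 2 (13.3%) were lower and 1 (6.67%) higher in each knockout, both below the shares of all genes. Their medians were 0.21 and 0.06, the second of which turns to -0.04 under TMM. Polr1d, a subunit shared with RNA polymerase III, had 96.7, 24.6 and 26.8 CPM, and Znrd1, another subunit, had 60.1, 23.6 and 23.9 CPM. Cd3eap went the other way, with 12.8, 23.4 and 27.6 CPM. By total counts 9 of the 15 were above 0 in each knockout, near the share of all genes (7428 of 13223 and 7355 of 13403).

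The 76 mitochondrial ribosomal protein genes, which serve a separate ribosome, were lower too, with medians of -0.41 and -0.43. In Dgcr8-/- cells 31 (40.8%) were at least 1.5-fold lower and 2 higher, and in Dicer-/- cells 21 (27.6%) and 1, beside 17.7% and 19.7% of all genes lower. Their summed CPM was 1.32-fold (1.31 to 1.34) and 1.29-fold (1.28 to 1.31) below WT. Mrpl33 had 51.8 CPM in WT, 13.8 in Dgcr8-/- cells and 28.7 in Dicer-/- cells, and Mrpl13 had 121, 49.0 and 47.8 CPM. Lower levels were thus also found outside the cytosolic family.

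Regulators of these genes differed by group. Of 19 genes of mTOR signalling and TOP binding, 3 (15.8%) were higher and 2 lower by 1.5-fold in Dgcr8-/- cells, and 4 (21.1%) and 1 in Dicer-/- cells, beside 27.1% and 28.0% of all genes higher, with medians of 0.10 (-0.02 under TMM) and 0.14. Rictor, of mTOR complex 2, had 25.2 CPM in WT, 45.1 in Dgcr8-/- cells and 57.5 in Dicer-/- cells, and Eif4ebp1, the cap-binding repressor, had 464, 277 and 230 CPM. In the MYC network, which holds activators and repressors of ribosomal genes, 5 of 10 were higher and 2 lower by 1.5-fold in Dgcr8-/- cells. In Dicer-/- cells 5 were higher and 1 lower. Of all genes, 27.1% and 28.0% were higher by that size and 17.7% and 19.7% lower. In each knockout 8 of the 10 were above 0, beside 7428 of 13223 and 7355 of 13403 among all genes. The medians of the 10 were 0.52 and 0.67. Myc had 26.2, 5.84 and 5.85 CPM, while Mycn had 61.7, 189 and 282 CPM, so the pair went opposite ways.

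Of 12 genes of the p53 checkpoint, 3 (25%) were at least 1.5-fold higher and 1 lower in Dgcr8-/- cells and 6 (50%) and 1 in Dicer-/- cells, beside 27.1% and 28.0% of all genes higher. Their medians were 0.30 and 0.56. Trp53 itself had 331 CPM in WT, 542 in Dgcr8-/- cells and 603 in Dicer-/- cells, and its target Sesn2 had 37.1, 101 and 85.2 CPM. Rps27l went the other way in both knockouts.

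Markers of other cell types differed between the libraries. Of 10 feeder fibroblast markers 5 have rows, and they summed to 42.3 CPM in WT, 11.2 in Dgcr8-/- cells and 3.17 in Dicer-/- cells, with S100a4 at 0 in Dgcr8-/- cells. The 7 neural markers summed to 157, 271 and 283 CPM, with none at 0. Of them 5 (71.4%) in Dgcr8-/- and 6 (85.7%) in Dicer-/- cells were at least 1.5-fold higher, beside 27.1% and 28.0% of all genes. Pax6 was at 0.201 CPM in WT, 5.93 in Dgcr8-/- cells and 15.3 in Dicer-/- cells. The 4 endoderm markers with rows, of 8, summed to 408, 536 and 553 CPM, most of it Sparc, with Hnf4a at 0 in both knockouts and Gata6 in Dicer-/- cells. The 4 muscle markers with rows, of 7, summed to 54.1, 9.98 and 5.12 CPM. Most of this was Des at 50.9, 6.20 and 1.62 CPM, and the other 3 were at 2.07 CPM or less in each library. The part of these cells in the levels of the ribosomal protein genes was not tested.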

How the data were processed

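Libraries were made from poly(A) RNA with a stranded kit, per the labels' protocols. The submitters' processing notes name Bowtie, without a version, and the mouse build mm9. What counter and annotation were used, whether strand was read and how reads matching several places were handled remain not given in the sources used here. As deposited by the authors, the table holds whole-number counts per RefSeq entry, with 1 column per library. Cells left empty (WT 252, Dgcr8-/- 221, Dicer-/- 138) were taken as 0. Counts from 2 to 9 were even for 69.6%, 74.8% and 69.7% of genes, which can happen when each mate is counted, and intervals would then be too narrow. PCR reads are not independent molecules, and intervals cover counting error only.

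Counts were scaled to CPM. Log2 ratios use a pseudocount of 1 CPM, which understates changes of low genes, and genes entered if they reached 1 CPM in at least 1 library of a pair. A gene was called at 1.5-fold or 2-fold. Intervals of ratios are exact conditional binomial, in SciPy 1.17.1. The script was tested on simulated data. Other settings changed the scaling (TMM by edgeR 4.0.16 in R 4.3.3, median-ratio, and counts outside the family), the pseudocount, the floor, the fold and the membership. Names, chromosomes, neighbours and start sequences come from RefSeq on GRCm38.p6, with no conversion from mm9.

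The named genes are the targeted genes, the 6 highest and 6 lowest ratios of each pair among members at 5 CPM or more, all paralogs, the stalk, 5S particle and X-linked genes, Rps6, Rpl22, Rps27, Rpl38, Rps25, the ribosomal proteins outside the name rule and up to 4 genes of each other list. The neighbours of Rps6 and Rpl13a, and other members given as examples of a role (among them Rpsa, Rps2 and Rps28) or Eef2, were named after their values were seen. Some genes that the rule takes are counted but not reported here by name. The members, lists and rules were chosen with earlier results of these data known.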

Additional observations from a re-analysis of the deposited data

Results flagged for a closer look

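For 6 members the 2 knockout libraries lay on opposite sides of the WT library, with the counting intervals of both ratios to WT clear of 1. The genes outside the family that meet this rule were not counted, so the 6 are not shown to be unusual. Each value below is the log2 ratio of Dgcr8-/- to Dicer-/- cells on CPM + 1, from 1 library each, and the difference was not tested. It was 2.69 for Rpl10l, the 1 of the 6 with Dgcr8-/- cells on the higher side. It was -0.87 for Rps4y2, -0.59 for Rps12, -0.32 for Rpl41, -0.27 for Rps26 and -0.27 for Rps9. In Rps12, Rpl41 and Rps26 the level in Dicer-/- cells lies below WT under TMM scaling, so they are then lower in both knockouts. Rps9, Rps4y2 and Rpl10l keep their sides under the 4 scalings run. For Rps9 this is narrow, since its log2 ratio in Dicer-/- cells to WT was 0.03 with TMM and 0.02 with median-ratio scaling. The levels of Rpl10l and Rps4y2 are uncertain, because how reads of close copies were divided is not given.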

How the results depend on the processing

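The 51 sums and medians recomputed under another setting kept their direction. Of the 84 single genes, 3 changed direction with the scaling in Dgcr8-/- cells, 6 in Dicer-/- cells and 4 between the knockouts. The summed ratio to WT was 0.610 (Dgcr8-/-) and 0.692 (Dicer-/-) with TMM, 0.601 and 0.689 with median-ratio scaling, and 0.627 and 0.716 scaled to counts outside the family; between the knockouts it was 0.882, 0.872 and 0.877. With ribosomal protein genes from outside the name rule added it was 0.665 in Dgcr8-/- cells and 0.892 between the knockouts. The median log2 ratio was -0.66 and -0.46 with TMM, -0.68 and -0.47 with median-ratio, and -0.62 and -0.41 outside the family. It was -0.50 in Dgcr8-/- cells with pseudogene rows added, and -0.50 and -0.28 for members outside chromosomes 1, 8 and X, both chosen after seeing the data.

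Of members higher in Dgcr8-/- cells there were 0 without the paralogs and 2 with a pseudocount of 0.1, and 9 were lower at 2-fold. The 36 lower at 1.5-fold became 47 with TMM or median-ratio scaling. Lower calls over all genes rose too, from 2345 to 2799 with TMM and 2898 with median-ratio scaling. In Dicer-/- cells 1 was higher with TMM, with median-ratio or without the paralogs, 0 at 2-fold, and 4 were lower at 2-fold. The 24 lower at 1.5-fold became 32 with TMM and 33 with median-ratio scaling. Over all genes such calls rose from 2642 to 3063 and 3085. Between the knockouts 0 were higher and 2 lower without the paralogs, and 0 were lower at 2-fold. The share of counts was 14.01%, 9.314% and 10.44% (WT, Dgcr8-/-, Dicer-/-) with ribosomal protein genes from outside the name rule added, 13.61%, 8.998% and 10.13% without the paralogs, 14.76%, 9.781% and 11.08% without the 10 highest other rows, and 14.05%, 9.309% and 10.48% with pseudogene rows. With 1 library per genotype no replicate could be left out, and no paired analysis was possible because no group has a second library. Depth limits only Rpl3l and Rpl39l, with 22 to 61 counts in a library.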
